A study of Mus musculus with 13 samples.

Results

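Cytosolic ribosomal protein genes encode the protein subunits of the ribosome that translates nuclear-encoded mRNA. They were chosen by name: every protein-coding mouse gene with a symbol that starts with Rpl or Rps and a digit, together with *Rplp0*, *Rplp1*, *Rplp2* and *Rpsa*, without the Rps6k kinases and without pseudogenes. This gave 86 of the 47643 genes listed. The rule uses names and no measured value, though the family was picked with earlier results of these data known. The rule also takes in *Rps19bp1*, whose product binds a ribosomal protein and is not one itself, and it misses genes such as *Fau* and *Rack1*, which encode ribosomal proteins under other names.

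RNA was sequenced from a brain fraction enriched for neurovasculature, taken from 13 male CD1 mice aged 8 to 10 weeks. The groups were 4 sham-vehicle mice, 5 mice given lipopolysaccharide (LPS-vehicle) and 4 mice that received CPD-4645 beside LPS (LPS-CPD-4645), CPD-4645 being an inhibitor of monoacylglycerol lipase, the enzyme that hydrolyzes the endocannabinoid 2-AG. LPS, a bacterial outer membrane component that sets off systemic inflammation, was injected at 3 mg/kg into the peritoneum at 0, 6 and 24 h, CPD-4645 was injected under the skin at 10 mg/kg, 30 min after each LPS dose according to the labels and the methods (a later time is given in the results of the study), and tissue was taken at 28 h. The vehicle was DMSO, Cremophor and saline. No group received CPD-4645 without LPS, and the brains had not been perfused, so blood cells in the vessels belong to the material.

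Ribosomal proteins are made in near-equal numbers, since each ribosome holds 1 copy of most of them. Their mRNAs commonly begin with a terminal oligopyrimidine tract, a C at the cap followed by a run of pyrimidines, through which the mTOR pathway and LARP1 control their translation. Because this control acts largely on translation, mRNA levels alone do not give the rate of ribosomal protein synthesis. Free RPL5 and RPL11 bind MDM2 and thereby link disturbed ribosome assembly to p53.

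Sequences around the annotated start are shown for a few members with this tract and 1 without it. In the RefSeq promoter table (GRCm38.p6), 66 of the 86 members were found, and 40 of them (60.6%) had a C within 10 bases of an annotated start that was followed by at least 4 pyrimidines on the transcribed strand. The share was 34.4% over all genes in the table, 44.9% over mitochondrial ribosomal protein genes and 40.3% over nuclear genes of oxidative phosphorylation subunits. The letters below run from 25 bases before the start to 20 bases from the start on, 5′ to 3′ on the transcribed strand, with the tract in capitals. *Rps27* (chr3:90213629-90213673, minus strand) and *Rps27rt* (chr9:114982720-114982764, minus strand) are shown because they share sequence. *Rps6* (chr4:86857348-86857392, minus strand), *Rplp2* (chr7:141447626-141447670, plus strand), *Rpl39* (chrX:37085203-37085247, minus strand) and *Rpl22l1* (chr3:28805483-28805527, plus strand) show the tract at other distances from the start, and *Rplp0* (chr5:115559442-115559486, plus strand) has no tract that begins within 10 bases of the start, although a short pyrimidine run follows further on.
Rps27: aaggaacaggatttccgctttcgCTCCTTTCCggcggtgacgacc
Rps27rt: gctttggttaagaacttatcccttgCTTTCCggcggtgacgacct
Rps6: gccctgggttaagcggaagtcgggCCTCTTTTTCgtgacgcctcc
Rplp2: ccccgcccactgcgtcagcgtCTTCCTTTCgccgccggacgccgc
Rpl39: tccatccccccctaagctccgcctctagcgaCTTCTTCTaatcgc
Rpl22l1: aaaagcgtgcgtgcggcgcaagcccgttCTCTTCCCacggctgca
Rplp0: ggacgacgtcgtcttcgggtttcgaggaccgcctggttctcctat
From base 2 of *Rps27* and base 1 of *Rps27rt* the transcripts read the same for 38 bases, while the letters before the start differ. A missing tract says only that these letters are not near the annotated start, which can lie some bases from the start used in the tissue.

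The libraries held 7813559 to 55133373 counts, with the fewest in mouse 3 of the LPS-vehicle and mouse 1 of the LPS-CPD-4645 group. Expression is given as CPM, a gene's counts relative to its library total after TMM scaling, and errors are SDs between mice unless named SE. Mitochondrial genes took 6.47 to 12.7% of the counts in sham-vehicle, 4.84 to 7.05% in LPS-vehicle and 3.97 to 8.17% in LPS-CPD-4645 mice. All 10 endothelial markers were detected, with a summed level of 430.5 to 1054 CPM, and so were all 7 neuronal markers, with 7865 to 10670 CPM, so the material held neuronal RNA beside that of vessels. The study reported low abundance of the neuronal marker *Syp* by RT-qPCR, a different measure. In the counts of sham-vehicle mice, *Syp* had a mean of 2384 CPM and the endothelial marker *Pecam1* 29.3 CPM. In such bulk tissue, more cells of a type and more RNA per cell cannot be told apart.

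Of the 86 members, 83 passed the filter on low counts. *Rpl10l*, *Rpl39l* and *Rpl24* did not, with at most 0.126, 0.711 and 0.592 CPM in any library. *Rpl10l* and *Rpl39l* are the copies of *Rpl10* and *Rpl39* best known from testis. *Rpl24* encodes a core subunit of the large ribosomal particle that every cell needs, but 47.0% of its exon sequence is also annotated to *Gm28037* on the same strand, and a read that fits both genes is not assigned to either by such counting. Whether this sets its low value was not tested, and the value is not read as its expression. *Rpl3l*, the muscle form of *Rpl3*, was the lowest member tested, with 0.306 RPKM (CPM per kilobase of exon) in sham-vehicle mice.

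In sham-vehicle mice the 83 members tested had a median of 78.2 RPKM, and 79 of them were at 10 RPKM or more. *Rplp1*, a subunit of the acidic stalk that recruits elongation factors, was the highest at 923 RPKM. Its stalk partners *Rplp0* and *Rplp2* were at 79.4 and 76.1 RPKM. The order depends on the divisor, the merged length of all annotated exons, which was 499 bases for *Rplp1*, 1659 for *Rplp0* and 2072 for *Rplp2*, and which can exceed the transcript in use. *Rps14* was at 134, *Rps27* at 188, *Rps19* at 24.7 and *Rps6*, the subunit that S6 kinases phosphorylate, at 60.7 RPKM. Only uniquely placed reads were counted, so reads of members with close copies in the genome may be missing, and since the strand counted is not stated, reads of a gene on the other strand may be included. Over the members, 0 to 90.3% of all 75-base words (the read length) occurred, on either strand, in transcripts of another gene, be it a copy elsewhere or a gene that overlaps in place. The share was 90.3% in *Rps27rt*, 84.1% in *Rps6* and *Rpl5*, 42.4% in *Rps27* and 13.4% in *Rps19*.

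Summed over the 86 members, the share of all counts was 1.33, 1.51, 1.29 and 1.12% in the 4 sham-vehicle mice. It was 1.56, 1.73, 1.60, 1.48 and 1.81% in the 5 LPS-vehicle mice and 1.73, 1.75, 1.76 and 1.60% in the 4 LPS-CPD-4645 mice. The means were 1.31% ± 0.163 (SD, n = 4), 1.64% ± 0.133 (n = 5) and 1.71% ± 0.075 (n = 4). Every LPS-CPD-4645 mouse lay above every sham-vehicle mouse, while LPS-vehicle mouse 4 lay below the highest sham-vehicle mouse. Sham-vehicle mouse 4 had both the lowest share and the highest mitochondrial share. With mitochondrial genes taken out of the total, the means were 1.44% ± 0.14, 1.75% ± 0.146 and 1.82% ± 0.0538, in the same order. No test was made of this sum.

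**Figure D1:**
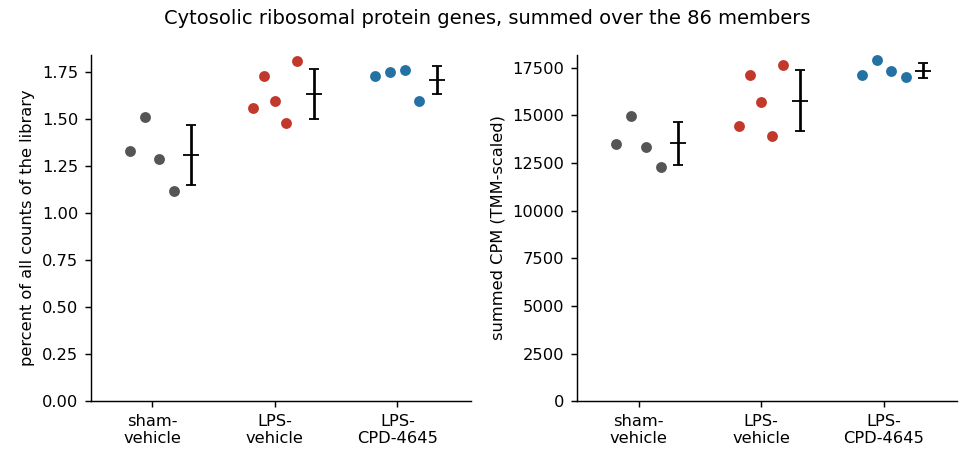
Summed level of the 86 cytosolic ribosomal protein genes in each library (points), as percent of all counts (left) and as summed TMM-scaled CPM (right); black marks give the mean ± SD of each group. Summed CPM ran from 12290 to 14980 in sham-vehicle, 13930 to 17640 in LPS-vehicle and 17020 to 17910 in LPS-CPD-4645 mice.

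Comparing LPS-vehicle with sham-vehicle mice asks what systemic inflammation changed. Most ribosomal protein mRNAs lay slightly above 0, and a minority passed the test: 18 of the 83 members were higher and 0 were lower at an adjusted p up to 0.05 (edgeR quasi-likelihood test, Benjamini-Hochberg over all genes), where 11.1% of all genes tested were higher and 8.86% lower. At an unadjusted p under 0.05 the counts were 39 and 0, against 16.9% and 15.4% of all genes. At the adjusted threshold limma-voom gave 20 and 0, voomWithQualityWeights 25 and 0 and DESeq2 21 and 0, where 10.8%, 12.5% and 12.4% of all genes were higher. The median log2 fold change of the members was 0.21, against -0.0007 over all genes tested, and 74 members were above 0. Relative to the sham-vehicle mean, the median over the members was 0.07, 0.32, 0.22, 0.05 and 0.38 in LPS-vehicle mice 1 to 5, so that mice 1 and 4 lay close to sham-vehicle. None of the 18 reached the 2-fold change that the study required, which 4.68% of all genes did upward. The ranges of the groups were apart upward for 8 members and downward for 0, against 9.68% and 8.44% of all genes, so that by this measure the upward share of the members was near the background. Of the 34 members tested with a small-subunit name, *Rps19bp1* included, 10 were higher, and of the 49 with a large-subunit name 8 were.

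*Rps14* (GRCm38 chr18:60747098-60778546, overlapped by *Ndst1* on the other strand), a small-subunit protein needed for maturation of its rRNA, had the largest rise among the members called. It was at 329, 339.8, 301 and 312 CPM in sham-vehicle mice and at 413, 515, 499.7, 365 and 509 CPM in LPS-vehicle mice. The groups did not overlap, and the log2 fold change was 0.52 (SE 0.10, adjusted p = 0.000696). *Rps27* (chr3:90212522-90213651), a zinc finger protein of the small subunit, was at 217.5, 211, 192 and 163 CPM in sham-vehicle and at 245, 283, 282, 241 and 292.5 CPM in LPS-vehicle mice. It too was separated, and the log2 fold change was 0.45 (SE 0.09, adjusted p = 0.00141). *Rplp0* (chr5:115559467-115563727), the base of the stalk and often a reference gene in RT-qPCR, was at 142, 148, 127 and 109 CPM in sham-vehicle and at 160, 224, 152.5, 164 and 227 CPM in LPS-vehicle mice. Its groups did not overlap either (log2 fold change 0.50, SE 0.13, adjusted p = 0.0121), but without sham-vehicle mouse 4 the adjusted p was 0.0518.

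*Rps19* (chr7:24884371-24889806), mutated in Diamond-Blackfan anemia, was at 98.3, 132, 142 and 89.4 CPM in sham-vehicle mice. In LPS-vehicle mice it was at 173, 189, 191, 107 and 169 CPM. Mouse 4 of the LPS-vehicle group lay within the sham-vehicle range, and the others above it (log2 fold change 0.52, SE 0.16, adjusted p = 0.0245). *Rpl39* (chrX:37082520-37085402), a short subunit at the exit tunnel for the nascent chain, was higher by 0.42 on the log2 scale (SE 0.14, adjusted p = 0.0385), with 162 CPM in LPS-vehicle mouse 3 and 106 to 115.5 CPM in the other mice of that group. The calls of *Rps19* and *Rpl39* were lost under 6 and 7 of the 25 alternative analyses, while those of *Rps14* and *Rps27* were kept under all 25.

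The number of members called rested on single mice. It was 5 without sham-vehicle mouse 4 and 10 without sham-vehicle mouse 1, where 8.48% and 8.94% of all genes were higher. It was 11 without LPS-vehicle mouse 3 and likewise 11 without LPS-vehicle mouse 5, where 10.6% and 10.9% of all genes were higher, and 28 without LPS-vehicle mouse 4, where 10.2% were. Without the pair of shallowest libraries it was 9, against 10.2% of all genes. With library totals in place of TMM it was 41, against 15.2% of all genes, and the median of all genes then shifted to 0.10. Over the same mice, neutrophil markers (7 of 9 tested) summed to 1.23 to 5.59 CPM in sham-vehicle, 65.8 to 279 CPM in LPS-vehicle and 7.30 to 27.6 CPM in LPS-CPD-4645 mice, and neuronal markers to 9257 to 10670, 7865 to 8682 and 8230 to 10560 CPM. Between sham-vehicle and LPS-vehicle mice the sums of other lists were also apart, with oligodendrocyte markers at 4093 to 6020 and 2957 to 3883 CPM and erythrocyte markers (4 of 6 tested) at 467 to 957 and 239 to 459.9 CPM. Endothelial sums overlapped, at 430.5 to 690.5 and 493.9 to 1054 CPM, with 5 of 10 markers called higher and 2 lower. Of 8 pericyte and smooth muscle markers 1 was called higher and 4 lower, and of 6 fibroblast markers 1 and 3, against 11.1% and 8.86% of all genes. Astrocyte markers, also apart, were at 1549 to 2003 CPM in sham-vehicle and 2061 to 2685 CPM in LPS-vehicle mice, and monocyte and macrophage markers (4 of 6 tested) at 9.39 to 14.2 CPM and 21.2 to 74.8 CPM. Genes within these lists differed. The means were 95.1 and 504 CPM for *Gfap* but 64.5 and 58.05 CPM for *Aqp4*, and 8.08 and 43.1 CPM for *Lyz2* but 2.39 and 1.65 CPM for *Mrc1*. Of the astrocyte markers 2 of 6 were called higher, and of the monocyte and macrophage markers 3 of 4, with 0 lower in either list. Their part in the change of the members was not tested.

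**Figure D2:**
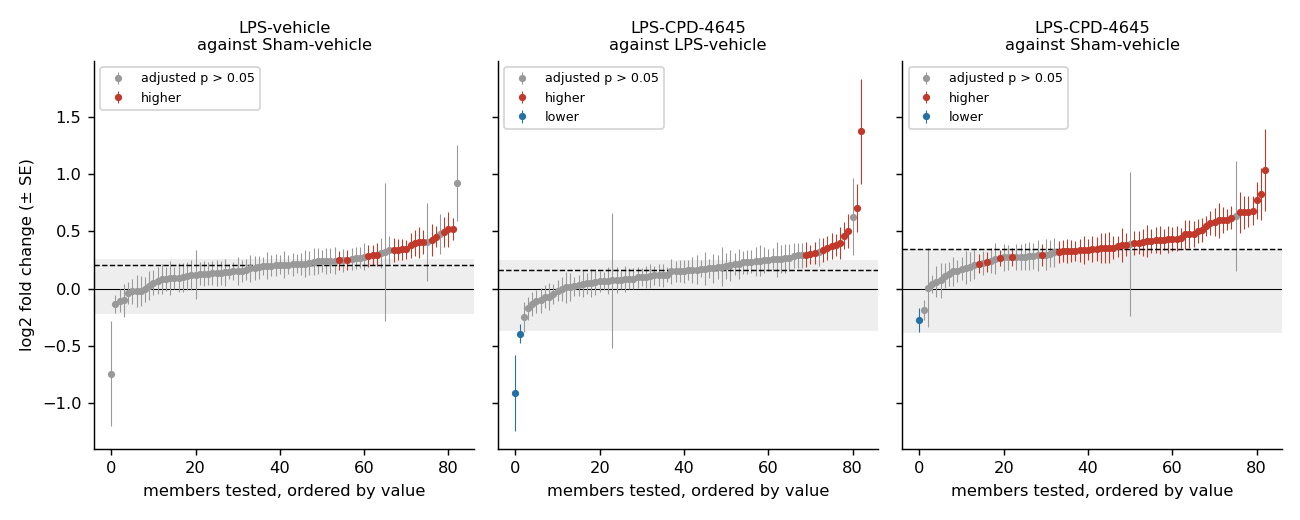
Log2 fold change (± SE) of the 83 members tested, ordered by value in each comparison, with those past an adjusted p of 0.05 in color; the gray band spans the quartiles of all genes tested and the dashed line is the median of the members. The medians lie at 0.21, 0.16 and 0.35, each above the median of all genes.

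Whether the inhibitor changed the response to LPS is asked by setting LPS-CPD-4645 against LPS-vehicle mice. Few members passed the test: 12 of 83 were higher and 2 lower in LPS-CPD-4645 mice (edgeR, adjusted p at most 0.05), where 14.1% and 16.4% of all genes were. At an unadjusted p under 0.05 the counts were 25 and 2, against 19.4% and 22% of all genes. By edgeR the share of members called higher was near that of all genes, but 16 were higher with limma-voom, 17 with DESeq2 and 21 with voomWithQualityWeights, where 15.7%, 16% and 16.3% of all genes were. Their median log2 fold change was 0.16, against -0.02 over all genes, with 71 members above 0. Relative to the LPS-vehicle mean, the 4 LPS-CPD-4645 mice had medians of 0.14, 0.20, 0.13 and 0.12. Groups were separated upward for 5 members and downward for 1, against 11.1% and 12% of all genes. One member passed the 2-fold threshold upward, as 1.7% of all genes did.

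That member was *Rpl26*, a large-subunit protein also known to bind p53 mRNA, and 1 mouse stood far above the rest. The gene (GRCm38 chr11:68901583-68906989) was at 39.6, 32.4, 27.7 and 182 CPM in LPS-CPD-4645 mice and at 22.3, 33.3, 22.0, 22.9 and 34.2 CPM in LPS-vehicle mice. In sham-vehicle mice it was at 35.1, 22.8, 87.6 and 36.6 CPM. The log2 fold change against LPS-vehicle was 1.38 (SE 0.46, adjusted p = 0.0301). Without LPS-CPD-4645 mouse 4 it was 0.30, with an adjusted p of 0.505, and the call was lost under 8 of the 25 alternatives.

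Among the members named here, *Rpl22l1* and *Rps27l*, paralogs of *Rpl22* and *Rps27*, were those whose rise over LPS-vehicle was kept under all 25 alternatives. *Rpl22l1* (chr3:28805436-28807424, overlapped by *Gm33051* on the other strand) was at 62.2, 67.5, 53.8 and 61.5 CPM in LPS-CPD-4645 mice and at 42.9, 44.7, 50.4, 46.0 and 51.4 CPM in LPS-vehicle mice. The groups were separated, and the log2 fold change was 0.38 (SE 0.10, adjusted p = 0.00732). *Rps27l* (chr9:66946086-66949516), a known p53 target gene, was at 35.1, 45.6, 39.0 and 36.2 CPM in LPS-CPD-4645 mice against 25.8, 24.7, 35.6, 25.7 and 30.8 CPM in LPS-vehicle mice. Here 1 LPS-vehicle mouse overlapped the lowest LPS-CPD-4645 mouse, and the log2 fold change was 0.46 (SE 0.12, adjusted p = 0.00687).

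*Rpl29*, *Rpl27* and *Rpl10a*, all of the large subunit, were also higher. The log2 fold change was 0.70 for *Rpl29* (SE 0.21, adjusted p = 0.0178), 0.51 for *Rpl27* (SE 0.15, adjusted p = 0.0147) and 0.40 for *Rpl10a* (SE 0.14, adjusted p = 0.0359). *Rpl29* was at 11.9, 15.7, 10.6 and 15.6 CPM in LPS-CPD-4645 and at 7.21, 10.8, 4.41, 7.20 and 10.9 CPM in LPS-vehicle mice, so that 2 LPS-vehicle mice lay above the lowest LPS-CPD-4645 mouse. The call of *Rpl29* was lost under 2 of the 25 alternatives, that of *Rpl27* under 1 and that of *Rpl10a* under 7.

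Of the 2 lower members, *Rpl7l1* (chr17:46773907-46782672), a paralog of *Rpl7*, was the steadier. It was at 37.4, 37.0, 41.5 and 37.1 CPM in LPS-CPD-4645 mice and at 48.3, 53.8, 53.3, 43.1 and 53.2 CPM in LPS-vehicle mice, with no overlap. It fell by 0.39 on the log2 scale (SE 0.08, adjusted p = 0.00174), and the call was kept under all 25 alternatives. *Rpl35a* (chr16:33056453-33060189), another gene of Diamond-Blackfan anemia, was at 21.4, 20.5, 52.9 and 28.1 CPM against 92.6, 25.9, 57.8, 49.7 and 65.2 CPM in LPS-vehicle mice. The sham-vehicle mice were at 39.9, 24.6, 41.5 and 16.3 CPM, and LPS-vehicle lay above them by 0.92 without passing the test (adjusted p = 0.0594). The LPS groups overlapped, and the fall by 0.91 (SE 0.33, adjusted p = 0.0463) was no longer called under 13 of the 25 alternatives, limma-voom and DESeq2 among them.

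The count of 12 rested on single mice as well. It was 7 without LPS-vehicle mouse 1 and 4 without LPS-CPD-4645 mouse 2, where 11.7% and 10.4% of all genes were higher, so that these shares of the members lay below the background. It was 20 without LPS-vehicle mouse 2 and 23 without LPS-vehicle mouse 5, where 14.3% and 13.1% of all genes were higher. With library totals in place of TMM, 6 members were higher and 3 lower, and over all genes 9.26% were higher and 20% lower, with the median of all genes at -0.10. Of the cell type markers, all 7 neutrophil markers tested were lower in LPS-CPD-4645 than in LPS-vehicle mice, as were 4 of 10 endothelial, 3 of 6 microglial and 1 of 4 monocyte and macrophage markers. Called higher were 1 of 7 neuronal, 1 of 5 oligodendrocyte and 1 of 4 choroid plexus markers, while 1 other oligodendrocyte marker was lower. Over all genes 14.1% were higher and 16.4% lower. The summed monocyte and macrophage markers were at 9.33 to 14.5 CPM in LPS-CPD-4645 and at 21.2 to 74.8 CPM in LPS-vehicle mice. The part of these markers in the result was not tested.

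**Figure D3:**
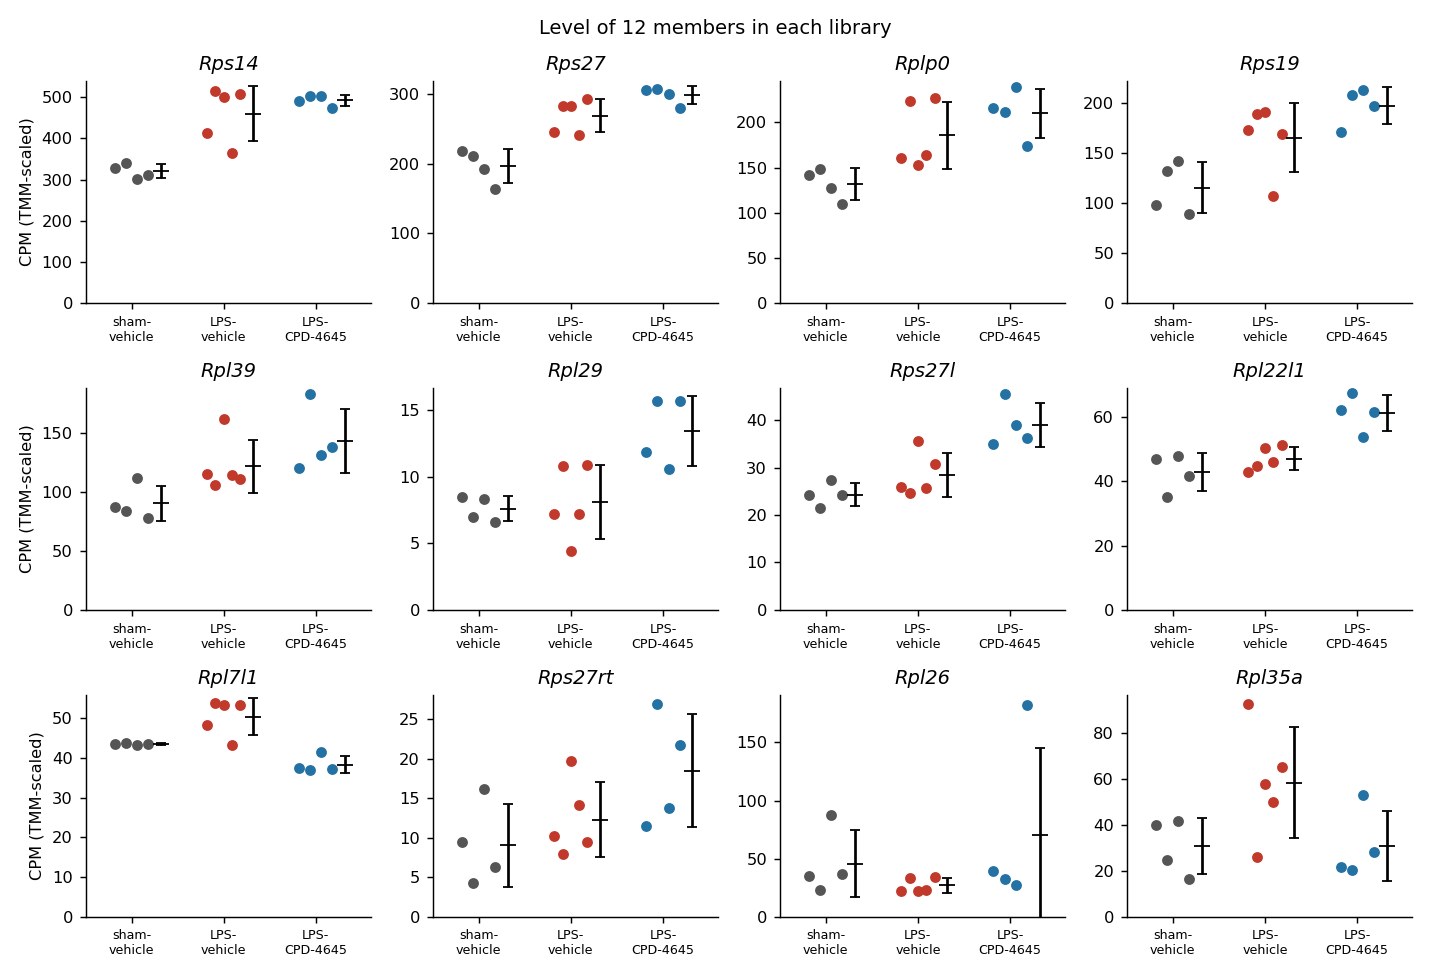
TMM-scaled CPM of 12 members in each library (points), with mean ± SD of each group in black; the axes start at 0, and the lower end of the SD of Rpl26 in LPS-CPD-4645 mice lies below 0 and is not drawn. Rps14, Rps27 and Rplp0 are separated between sham-vehicle and LPS-vehicle mice, and Rpl26 has 1 mouse at 182 CPM.

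Comparing LPS-CPD-4645 with sham-vehicle mice gives the change under LPS and inhibitor together. Here ribosomal protein mRNAs were higher as a large part of the family: 53 of 83 members were higher and 1 was lower (edgeR, adjusted p up to 0.05), against 19.5% and 19.3% of all genes. The median log2 fold change was 0.35, against -0.01 over all genes, and 81 members were above 0. In the 4 LPS-CPD-4645 mice the median relative to the sham-vehicle mean was 0.36, 0.41, 0.34 and 0.30. Groups were separated upward for 44 members and downward for 1, against 18.7% and 18.8% of all genes. Higher were 30 of the 49 with a large-subunit name and 23 of the 34 with a small-subunit name, which include *Rps19bp1*, the 1 lower gene. The count stayed between 43 and 69 under all 25 alternatives, under which 11.4% to 22.8% of all genes were higher. It was 43 without sham-vehicle mouse 4 and likewise without LPS-CPD-4645 mouse 2, where 17.2% and 16.2% of all genes were higher. This comparison shares its control mice with the first and its treated mice with the second, so the 3 sets of values are not independent. Microglial markers were lower in 5 of 6 cases, with sums of 199 to 276 CPM in sham-vehicle and 141 to 188 CPM in LPS-CPD-4645 mice that did not overlap. Pericyte and smooth muscle markers were lower in 5 of 8 cases and higher in 1, with overlapping sums of 174.5 to 264.5 and 161 to 221 CPM. Neutrophil markers were higher in 3 of 7 cases, with sums of 1.23 to 5.59 and 7.30 to 27.6 CPM that did not overlap. Of 10 endothelial markers 3 were higher and 3 lower, of 6 fibroblast markers 1 and 3, and of 5 oligodendrocyte markers 0 and 2. Their part in the change of the members was not tested.

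*Rps19*, *Rplp0* and *Rps27l* were among the 5 largest rises. *Rps19* was at 171, 208, 213 and 198 CPM in LPS-CPD-4645 mice, above all sham-vehicle mice (log2 fold change 0.77, SE 0.16, adjusted p = 0.00112). *Rplp0* was at 216, 211.5, 239 and 174 CPM, also separated (0.67, SE 0.14, adjusted p = 0.000895). *Rps27l* was at 24.2, 21.5, 27.4 and 24.2 CPM in sham-vehicle mice and thus below every LPS-CPD-4645 mouse (0.68, SE 0.13, adjusted p = 0.000368). *Rpl29* was at 8.49, 6.99, 8.32 and 6.56 CPM in sham-vehicle mice (0.82, SE 0.23, adjusted p = 0.00781).

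The largest change, and the only one past 2-fold (6.11% of all genes upward), was that of *Rps27rt*, a retrotransposed copy of *Rps27* that lies within *Osbpl10* on the opposite strand (chr9:114982366-114982739). It was at 9.41, 4.22, 16.2 and 6.27 CPM in sham-vehicle and at 11.5, 27.0, 13.7 and 21.7 CPM in LPS-CPD-4645 mice. The groups overlapped (log2 fold change 1.04, SE 0.36, adjusted p = 0.0275), and the call was lost on leaving out any of 5 mice. Of its 75-base words 90.3% also occur in transcripts of another gene, so reads could be assigned to it at few positions. *Rps27* itself was at 306, 307, 300 and 279.5 CPM in LPS-CPD-4645 mice, above all sham-vehicle mice (0.60, SE 0.09, adjusted p = 7.59e-05).

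*Rps19bp1* (chr15:80260615-80264315), which encodes the binding partner of RPS19 and is no ribosomal protein, was the 1 lower gene. It was at 41.5, 51.5, 40.3 and 39.3 CPM in sham-vehicle and at 32.5, 34.0, 42.6 and 33.1 CPM in LPS-CPD-4645 mice, overlapping in 1 mouse. Its fall by 0.28 (SE 0.11, adjusted p = 0.0464) was not called under 17 of the 25 alternatives.

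Genes named as paralogs did not all have the same value. In LPS-CPD-4645 against sham-vehicle mice, the log2 fold change was 0.27 for *Rpl22* (adjusted p = 0.0115) and 0.51 for *Rpl22l1* (adjusted p = 0.000875). *Rpl7* was higher (0.43, adjusted p = 0.00254), while *Rpl7l1* was at -0.18 (adjusted p = 0.1). *Rpl36a* and *Rpl36al* were at 0.28 and 0.27, with adjusted p of 0.0643 and 0.0695. *Rpl3* was at 0.32 (adjusted p = 0.054), *Rpl10* at 0.26 (adjusted p = 0.126), *Rps4x* at 0.28 (adjusted p = 0.0736) and *Rpl3l* at 0.39 with an SE of 0.63. Differences between paralogs were not tested.

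The stalk proteins *Rplp1* and *Rplp2* were higher by 0.33 and 0.295 (adjusted p = 0.0128 and 0.0251), and the call of *Rplp2* was lost without sham-vehicle mouse 1 or 4. *Rpl11* was higher by 0.50 (SE 0.10, adjusted p = 0.000833), while its partner in the 5S particle, *Rpl5*, was at 0.28 (SE 0.12, adjusted p = 0.066). *Rpsa*, which is also known as the laminin receptor, was at 0.21 (adjusted p = 0.198) and *Rps6* at 0.24 (adjusted p = 0.0883). In LPS-vehicle against sham-vehicle mice, *Rpl36a* (0.38, adjusted p = 0.02) and *Rpl7* (0.28, adjusted p = 0.0472) were called among these genes, and both calls were lost under some alternatives, 4 and 14 of the 25.

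In LPS-CPD-4645 against sham-vehicle mice (19.5% of all genes higher), 22 of the 34 members with under 25% of shared words were higher, 17 of 23 between 25 and 50%, and 14 of 26 at 50% or more. The medians were 0.35, 0.35 and 0.32. By the tract at the start, 26 of 38 members with it, 13 of 25 without it and 14 of 20 not in the promoter table were higher, with medians of 0.34, 0.33 and 0.39. These limits were chosen after the data were seen, and the counts are a description.

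**Figure D4:**
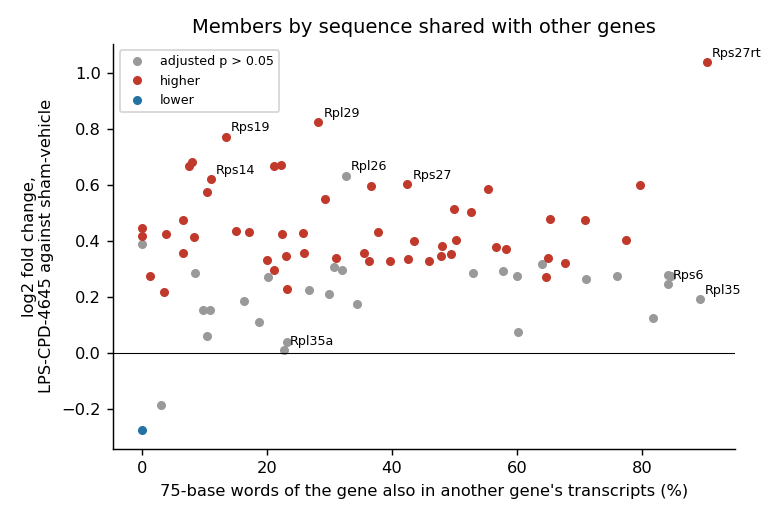
Log2 fold change of each member tested in LPS-CPD-4645 against sham-vehicle mice (vertical axis) by the percent of its 75-base words that also occur in transcripts of another gene (horizontal axis). Higher members lie from 0 to 79.6% of shared words, and of the 6 members above that 1, Rps27rt at 90.3%, was called.

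Other genes of translation, and subunits of oxidative phosphorylation, are given for comparison, and their difference from the ribosomal proteins was not tested. The shares of all genes called higher and lower were 11.1% and 8.86%, 14.1% and 16.4%, and 19.5% and 19.3% in the 3 comparisons, against which the counts of each list below are to be read. Mitochondrial ribosomal protein genes (77 tested) had medians of -0.08, 0.07 and -0.03 in the order of the comparisons above, with 2 higher and 2 lower, 20 and 12, and 17 and 22. The extremes in LPS-CPD-4645 against sham-vehicle mice were *Mrpl2* (0.79) and *Mrpl36* (-1.25). Oxidative phosphorylation subunits (85 tested) had medians of -0.12, 0.23 and 0.09, with 0 higher and 7 lower, 35 and 1, and 15 and 5. Initiation factors (38 tested) had medians of -0.02, 0.28 and 0.34, with 2 and 1, 17 and 2, and 22 and 4. *Eif3l*, a subunit of eIF3, was the largest rise of that list against sham-vehicle (0.69, adjusted p = 0.00011) and *Eif2s1*, the alpha subunit of eIF2, the largest fall (-0.63, adjusted p = 0.000184).

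Elongation factors (11 tested) had 1 higher and 2 lower, 2 and 0, and 3 and 1. Genes of ribosome assembly and the nucleolus (46 tested) had medians of 0.05, 0.21 and 0.25, with 2 and 2, 18 and 2, and 20 and 2, and *Gnl3*, a nucleolar GTPase, had the largest rise (1.11 against sham-vehicle, adjusted p = 1.1e-06). Host genes of small nucleolar RNAs (12 tested), whose spliced RNAs often carry the same tract, had medians of 0.67, 0.30 and 0.86, with 9 and 0, 3 and 0, and 11 and 0. *Snhg1* rose by 0.86 after LPS (adjusted p = 4.52e-05). *Fau*, which encodes ribosomal protein S30, was higher by 0.39 in LPS-CPD-4645 than in sham-vehicle mice (adjusted p = 0.0227).

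Among 25 genes of growth control, 7 were higher and 2 lower, 5 and 3, and 10 and 4, of which the lower counts are near or below the shares of all genes. *Myc*, which drives transcription of ribosomal genes, rose by 1.86 after LPS (adjusted p = 7.74e-06), *Mycn* fell by 0.99, and *Ddit4*, an inhibitor of mTOR signaling, was higher by 2.19 in LPS-CPD-4645 than in sham-vehicle mice (adjusted p = 8.68e-09). The p53 response list (18 tested) had 7 and 1, 8 and 3, and 9 and 4, with *Cdkn1a* higher by 2.41 and 3.46 in LPS-vehicle and LPS-CPD-4645 than in sham-vehicle mice. The largest falls of that list were those of *Zmat3* after LPS (-0.36) and of *Mdm4* in LPS-CPD-4645 mice (-0.90 against LPS-vehicle and -0.82 against sham-vehicle). The translational stress list (16 tested) had 6 and 0, 4 and 1, and 9 and 0, led by *Atf3* against sham-vehicle (2.49 and 2.72).

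**Figure D5:**
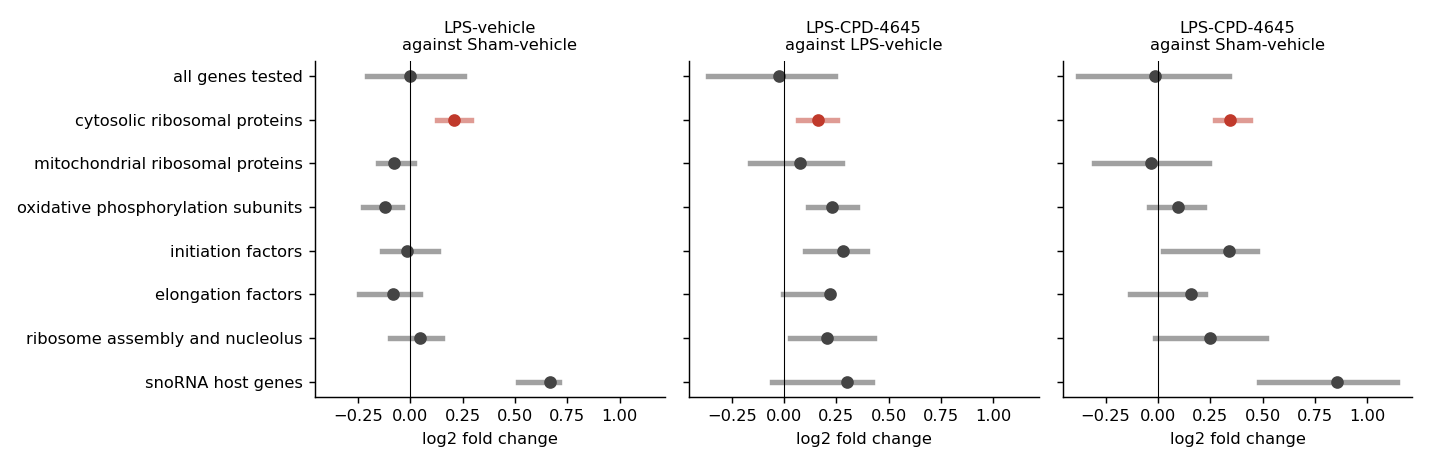
Median (point) and quartiles (bar) of the log2 fold change of the cytosolic ribosomal protein genes (red), other translation-related lists and all genes tested, in the 3 comparisons. The cytosolic ribosomal protein genes lie above 0 over their quartiles in all 3, whereas mitochondrial ribosomal protein genes straddle 0.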

How the data were processed

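The authors aligned 75-base single-end reads of stranded poly(A) libraries to GRCm38 (mm10) with STAR 2.5.2a and deposited whole-number counts of uniquely placed reads per gene on GENCODE M9 basic; which strand was counted is not given in the sources used here, so the values of members that overlap a gene on the other strand may include its reads. Symbols and exon lengths came from GENCODE M21 (47224 of 47643 identifiers matched). filterByExpr (count 10, total 15) kept 17285 genes, on which edgeR 4.0.16 was run in R 4.3.3 (TMM, quasi-likelihood, 13 mice in 1 fit without covariates, Benjamini-Hochberg adjustment over all genes). SEs come from that fit. Each library is 1 mouse, grouped by its label, and within groups libraries differed by more than counting error. Members and lists were chosen with earlier results of these data known. Named genes were, per comparison, the 5 largest rises and falls among called members of at least 1 CPM, plus fixed paralogs, stalk and assembly-related members. Of the related lists, only some of the extremes are named. Alternatives were limma 3.58.1, DESeq2 1.42.0, other scalings, filters, a replicate block, summed pseudogenes and omitted mice, and shares with other totals. On simulated counts edgeR and limma kept false calls under the limit set for that check and DESeq2 did not, so counts from DESeq2, which is an alternative only, may hold more false calls. 1 gene-level result is not reported here. Plots used matplotlib.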

Additional observations from a re-analysis of the deposited data

Results flagged for a closer look

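Among 31 named members and the summed share, in 96 groups of 4 or 5 mice, 7 values stood apart from the rest of their group by Dixon's gap, where chance flags about 1 in 20 groups. *Rpl26* was at 181.8 CPM in LPS-CPD-4645 mouse 4, with the other 3 mice at 27.7 to 39.6 CPM. *Rpl7l1* and *Rps19bp1* were at 41.53 and 42.62 CPM in LPS-CPD-4645 mouse 3, with the others at 37.0 to 37.4 and 32.5 to 34.0 CPM. *Rpl39* was at 161.6 CPM in LPS-vehicle mouse 3, the shallowest library, with the others at 105.9 to 115.5 CPM, and *Rpl10l* at 0.126 CPM in the same mouse, with the others at 0 to 0.0298 CPM. *Rps19* was at 106.8 CPM in LPS-vehicle mouse 4, with the others at 169 to 190.8 CPM. *Rpl27* was at 45.54 CPM in sham-vehicle mouse 3, with the others at 27.5 to 28.6 CPM.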

How the results depend on the processing

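The median log2 fold change of the members stayed above 0 under all 25 alternatives, from 0.15 to 0.31, 0.09 to 0.20 and 0.31 to 0.42 in the order LPS-vehicle against sham-vehicle, LPS-CPD-4645 against LPS-vehicle and LPS-CPD-4645 against sham-vehicle. Leaving out each mouse gave 5 to 28, 4 to 23 and 43 to 57 higher members, 0 to 0, 1 to 2 and 0 to 1 lower members, and 0 to 1, 0 to 2 and 0 to 1 past the 2-fold threshold, with medians of 0.148 to 0.2534, 0.1254 to 0.2004 and 0.3067 to 0.4229. The mean shares were 1.25 to 1.38, 1.59 to 1.68 and 1.69 to 1.75% in sham-vehicle, LPS-vehicle and LPS-CPD-4645 mice. Without the 100 most abundant other genes in the total they were 1.67, 2 and 2.1%, and without mitochondrial genes the last was 1.82%, since the total is smaller. For LPS-vehicle against sham-vehicle, 41 members were higher and 1 passed 2-fold with library totals in place of TMM, and 9 were higher without the 2 shallowest libraries. For LPS-CPD-4645 against LPS-vehicle, 21 were higher with voomWithQualityWeights, 6 with library totals (median 0.0851) and 28 with the replicate block (median 0.2033). There 1 was lower under limma-voom, DESeq2, summed pseudogenes and without the 2 shallowest libraries, and 0 passed 2-fold under limma-voom, DESeq2 and the block. For LPS-CPD-4645 against sham-vehicle, 0 were lower under limma-voom, DESeq2, DESeq2 size factors, library totals, no filter, only the groups compared and without the 2 shallowest libraries, and 2 under voomWithQualityWeights. The causes were not tested beyond what each setting changes.

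Replicate numbers did not pair the mice: deviations of same-numbered mice correlated at -0.0521 to 0.197, so the block is given only here, with 17, 28 and 62 higher members, where 11.3%, 13.9% and 19.8% of all genes were higher. Of 33 named calls, 18 were kept under every alternative, 15 were lost under at least 1 and 0 reversed. Uncalled values that turned sign were, in LPS-vehicle against sham-vehicle, *Rpl10a* (0.0097 with voomWithQualityWeights, 0.0711 with library totals, 0.0342 without the 2 shallowest libraries, -0.138 to 0.0855 without single mice), *Rpl36al* (0.0779 with library totals, -0.0703 to 0.0311) and *Rpl29* (-0.0694 with the block, -0.0016 to 0.2484). In LPS-CPD-4645 against LPS-vehicle they were *Rpl3l* (-0.2124 with limma-voom, -0.4421 with voomWithQualityWeights, -0.0061 with library totals, -0.1198 to 0.4307), *Rpl3* (-0.0002 with library totals, -0.012 without the 2 shallowest libraries), *Rplp1* (-0.0141 with library totals) and *Rps4x* (-0.0392 without the 2 shallowest libraries). In LPS-CPD-4645 against sham-vehicle they were *Rpl35a* (-0.018 with limma-voom, -0.3493 with voomWithQualityWeights, -0.3843 to 0.2007), *Rpl3l* (-0.2412 with voomWithQualityWeights) and *Rpl26* (-0.4474 to 1.1763 without single mice). Few counts lie behind *Rpl3l*, *Rpl10l* and *Rpl39l*, all under 1 CPM in every library.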
